A study of Mus musculus with 3 samples.

Results

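The hypoxia and glycolysis genes are a list of 39 mouse genes of the HIF pathway, the glycolytic enzymes, the handling of pyruvate and lactate, and further targets of hypoxia. They were chosen by gene name: every probe set that the platform annotation assigns to exactly 1 of these genes was taken, whatever its signal. Probe sets were found for 36 of the 39 genes, 83 probe sets in all, out of 18194 named genes on the array. Gpi1, Eno1 and Bnip3l had no probe set of their own in that annotation and are not reported. Of the 36, 31 could be compared, and Egln3, Slc2a3, Pfkfb3, Aldoc and Slc16a3 lay below the floor set for dim signals.

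The study exposed CT26.WT cells, a mouse colon carcinoma line, to 1 of 2 recombinant mouse proteins. The S100a9 group received 4 µg/ml of S100a9 and the S100a8 group 4 µg/ml of S100a8, each for 24 h after 12 h without serum. The control group, also labelled 12 h without serum, had neither protein. Whether it received BSA, as its title has it, or saline, as the rest of the labels have it, is unclear, and no exposure time is given for it. Each group is 1 culture on 1 Affymetrix Mouse Genome 430 2.0 array, so there is no spread between replicates, no test was possible, and every difference below is a difference between single arrays. The values are the deposited MAS5 signals on a linear scale, and the floor is their median over the 3 arrays (76.15).

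HIF is a pair of proteins, an alpha subunit such as Hif1a and its partner Arnt. When oxygen is present, prolyl hydroxylases (the Egln genes) mark the alpha subunit, and Vhl then directs it to degradation. When oxygen is short the alpha subunit persists and switches on glucose transporters, glycolytic enzymes, lactate dehydrogenase A, pyruvate dehydrogenase kinases and genes of mitochondrial turnover and acid export. Tumour cells often run glycolysis at a high rate even with oxygen, and Hif1a itself is controlled mostly at the level of the protein, which an mRNA array does not measure.

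Most members lay within 1.2-fold of control, as did most of all compared genes. With S100a9 this held for 27 of the 31 compared members, and with S100a8 for 23 of 31. Of all 11128 compared genes, 9580 lay within that size with S100a9 and 8346 with S100a8. Eno2, a neuronal-type enolase, and Kdm3a, a histone demethylase induced by hypoxia, were lower with either protein. Pdk1, a kinase that holds back pyruvate dehydrogenase, and the dim enolase gene Eno4 were higher with either protein. The ratio farthest from 1 among the members was that of Eno4 with S100a8, at 1.87-fold. Both comparisons against control use the same control array.

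**Figure D1:**
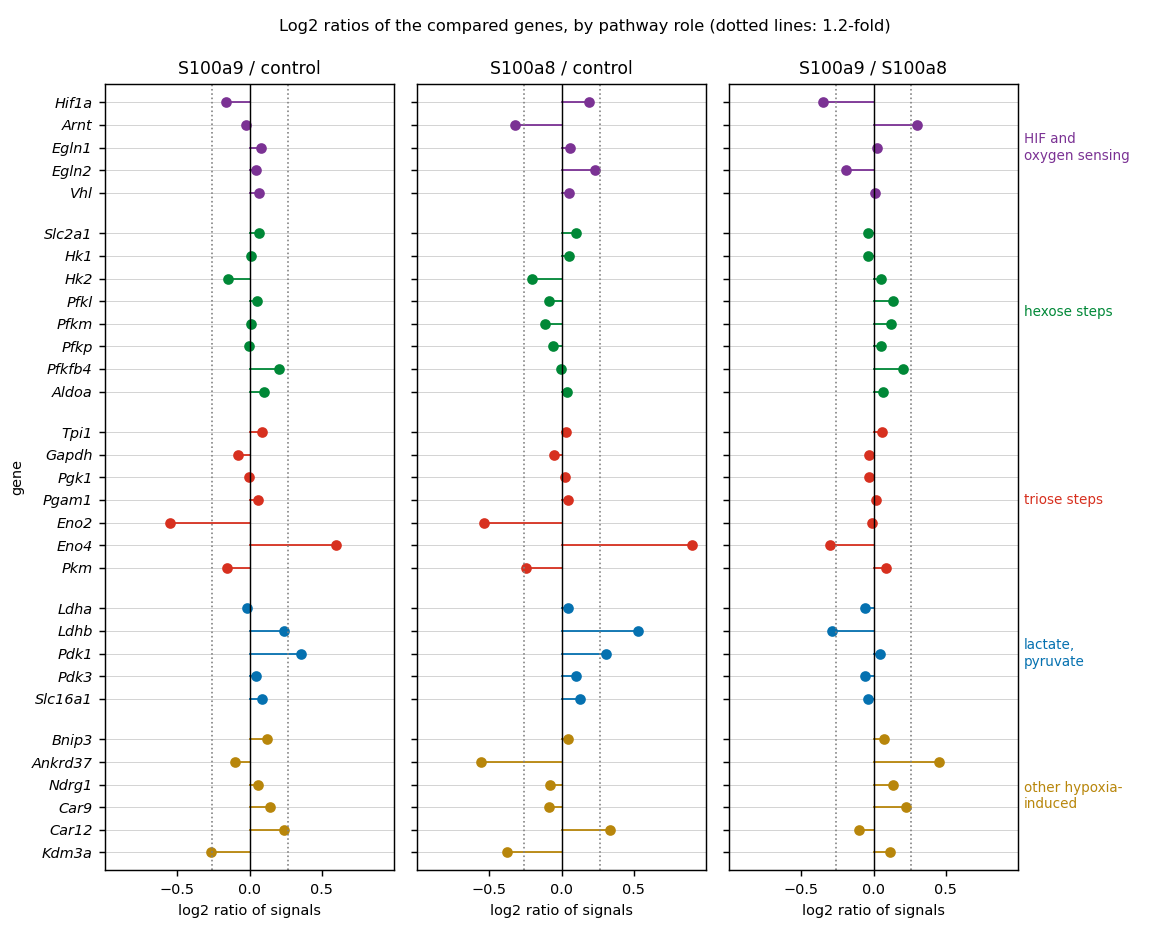
Log2 ratio of the signals of each compared gene (rows, grouped by role) for S100a9 over control, S100a8 over control and S100a9 over S100a8, each from single arrays, with dotted lines at 1.2-fold. Eno2 (−0.55 and −0.54), Kdm3a (−0.27 and −0.38), Pdk1 (0.35 and 0.31) and Eno4 (0.60 and 0.90) lie past the same line with S100a9 and with S100a8.

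In S100a9-treated cells 2 of 31 members were at least 1.2-fold higher than control (6.45%) and 2 were at least 1.2-fold lower (6.45%). Over all 11128 compared genes, 6.08% were that much higher and 7.83% that much lower. At 1.5-fold, 1 member was higher and 0 were lower, against 0.252% and 0.854% of all genes. Counting any size, 20 members were above control and 11 below, against 51.2% and 48.0% of all genes. The median log2 ratio was 0.05 over the members and 0.00 over all compared genes.

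In S100a8-treated cells 4 of 31 members were at least 1.2-fold higher than control (12.9%) and 4 at least 1.2-fold lower (12.9%), next to 13.7% and 11.3% of all compared genes. At 1.5-fold, 1 member was higher and 0 were lower, next to 1.13% and 1.91% of all genes. Counting any size, 18 members were above control and 13 below, against 52.5% and 47.5% of all genes. The members' median log2 ratio was 0.04, and that of all compared genes was 0.01. At 1.2-fold the shares were close to those of all compared genes with either protein.

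Between the proteins, 2 of 31 members were at least 1.2-fold higher with S100a9 than with S100a8, and 3 were at least 1.2-fold lower, next to 4.27% and 10.8% of all compared genes. No member passed 1.5-fold, a size reached by 0.0988% of all genes upward and 0.988% downward. At any size 18 members were higher and 13 lower with S100a9, next to 54.9% and 45.0% of all genes. Arnt and Ankrd37 were the higher ones, and Hif1a, Eno4 and Ldhb the lower ones. The median was 0.02, the same as over all genes (0.02).

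Bright signals varied less. For the 17 members with a mean signal of at least 1000, the S100a9 over control ratios ran from −0.27 to 0.12 and the S100a8 over control ratios from −0.38 to 0.23. Kdm3a was the only one of the 17 past 1.2-fold from control with either protein, and Hif1a the only one past it between the proteins. Among all 3061 genes this bright, 2.42% were at least 1.2-fold higher and 4.38% at least 1.2-fold lower with S100a9, against 3.56% and 8.36% with S100a8 and 1.18% and 1.54% for S100a9 over S100a8. Of the 14 dimmer members, 3 passed 1.2-fold with S100a9 (14.3% higher, 7.14% lower) and 7 with S100a8 (28.6% higher, 21.4% lower). Over all compared genes, bright and dim together, the shares were 6.08% and 7.83% with S100a9 and 13.7% and 11.3% with S100a8. With S100a9 these shares are 677 and 871 genes, of which 74 and 134 are among the 3061 bright ones. With S100a8 they are 1530 and 1252 genes, of which 109 and 256 are bright. The bright shares are lower in each case, so the shares over dim genes alone lie above those of all compared genes. Set beside all genes, the dim members therefore look further apart than beside dim genes.

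**Figure D2:**
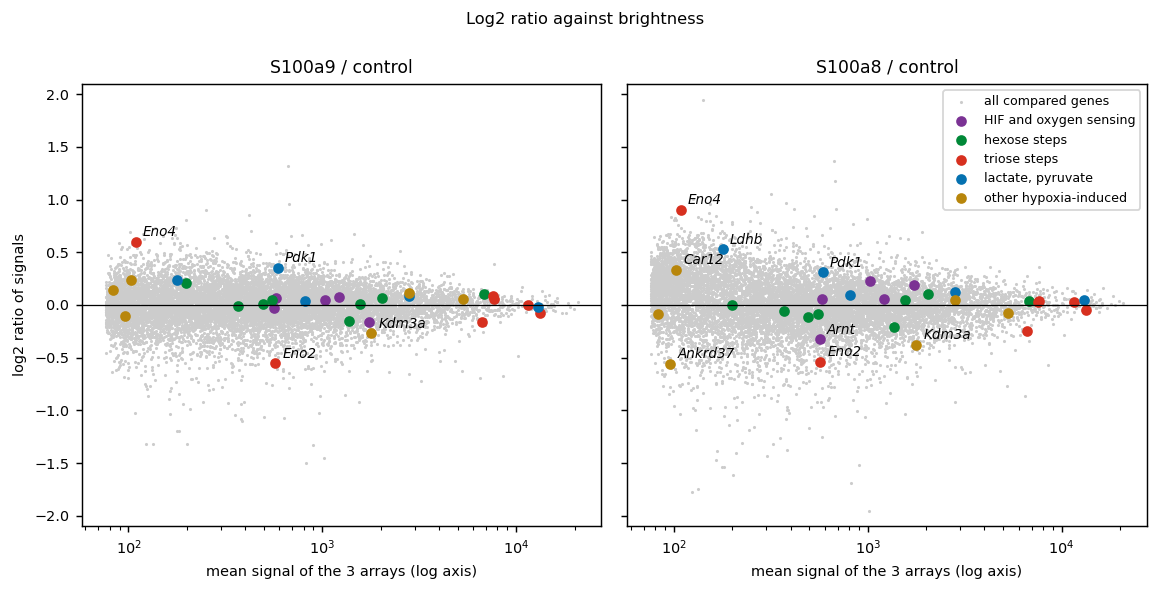
Log2 ratio of signals over control (vertical) against the mean signal of the 3 arrays (horizontal, log axis) for S100a9 and for S100a8, with all 11128 compared genes in grey and the members coloured by role. Members past 1.2-fold are named: 4 with S100a9 and 8 with S100a8, and all but Kdm3a have a mean signal under 1000.

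With 1 array a group, the nearest thing to a measurement error is the difference between probe sets of the same gene. Over the 4942 genes with at least 2 probe sets above the floor, the log2 ratio of the brightest differed from that of the next with an SD of 0.23 for S100a9 over control, 0.28 for S100a8 over control and 0.24 for S100a9 over S100a8. Where both probe sets had a mean of at least 1000 (824 genes), the SD was 0.13, 0.16 and 0.17. This covers the spread within an array, not that between cultures. The S100a8 array also had higher dim signals: for the 2782 dimmest of the compared genes the median over control was 0.00 on the log2 scale with S100a9 and 0.14 with S100a8. Trimmed mean signals were 310.9 (S100a9), 311.1 (S100a8) and 315.6 (control).

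CT26.WT cells are labelled colon carcinoma. Of 9 epithelial and colon markers, 4 lay above the floor (Epcam, Krt18, Krt20 and Cdx2), while Cdh1, Krt8, Krt19, Vil1 and Cldn7 did not. The summed signal of all 9 was 1953 (S100a9), 1775 (S100a8) and 2143 (control). Of 8 fibroblast markers 6 were above the floor, with summed signals of 11879, 10828 and 12067 on the same arrays. For 8 macrophage and granulocyte markers, 4 of them above the floor, the sums were 2430, 2171 and 2223. Their largest part was Cd14, with 1418, 1075 and 1413. The others above the floor were lowest in the control: Cd68 (395.9, 421.8 and 273.4), Csf1r (313.2, 369.5 and 267) and Lyz2 (138.9, 116.9 and 101.7). Ptprc, the pan-leukocyte gene, was below the floor. Above the floor were also 3 of 5 lymphoid, 2 of 5 endothelial, 2 of 4 muscle and 1 of 2 red blood cell markers. The labels name only CT26.WT cells, so these sums are not shares of cell types. How much of them is CT26.WT transcript and how much dim background was not tested.

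Promoter sequence is shown for 6 members picked by their ratios. Eno2 and Kdm3a were lower with either protein, Pdk1 was higher with either, and Ldhb was higher with S100a8. The hypoxia targets Ldha and Bnip3 stayed within 1.2-fold. HIF binds DNA at a short core, ACGTG or GCGTG, and capitals mark every match to these letters on either strand. A palindromic CACGTG holds a match on each strand and counts as 2. Each line gives RefSeq sequence of build GRCm38.p6 from 250 bases before to 50 after the most upstream annotated start, read 5′ to 3′ on the strand of the gene.
Eno2 (chr6:124769624-124769923, minus strand): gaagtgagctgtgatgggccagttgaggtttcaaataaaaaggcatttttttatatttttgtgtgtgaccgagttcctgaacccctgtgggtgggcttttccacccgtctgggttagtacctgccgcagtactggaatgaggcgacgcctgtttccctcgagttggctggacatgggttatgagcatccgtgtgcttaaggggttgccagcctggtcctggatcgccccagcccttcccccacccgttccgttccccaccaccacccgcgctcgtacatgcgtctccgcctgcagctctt
Kdm3a (chr6:71632868-71633167, minus strand): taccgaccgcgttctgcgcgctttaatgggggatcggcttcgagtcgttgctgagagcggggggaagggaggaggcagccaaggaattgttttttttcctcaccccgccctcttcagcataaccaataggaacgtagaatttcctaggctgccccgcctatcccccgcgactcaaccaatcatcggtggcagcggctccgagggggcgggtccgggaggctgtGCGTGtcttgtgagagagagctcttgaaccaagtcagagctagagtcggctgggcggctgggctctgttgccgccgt
Pdk1 (chr2:71872974-71873273, plus strand): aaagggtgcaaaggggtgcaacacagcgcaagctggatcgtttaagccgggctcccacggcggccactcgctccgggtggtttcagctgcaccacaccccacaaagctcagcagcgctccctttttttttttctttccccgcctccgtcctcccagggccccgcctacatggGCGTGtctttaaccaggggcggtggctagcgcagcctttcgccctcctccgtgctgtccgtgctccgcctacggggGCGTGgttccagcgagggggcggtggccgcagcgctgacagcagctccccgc
Ldhb (chr6:142507908-142508207, minus strand): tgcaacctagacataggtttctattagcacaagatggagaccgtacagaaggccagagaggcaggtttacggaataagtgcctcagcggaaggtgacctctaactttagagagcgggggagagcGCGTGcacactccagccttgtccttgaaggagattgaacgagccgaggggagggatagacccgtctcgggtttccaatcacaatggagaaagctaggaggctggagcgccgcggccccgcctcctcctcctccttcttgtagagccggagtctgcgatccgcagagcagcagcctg
Ldha (chr7:46845554-46845853, plus strand): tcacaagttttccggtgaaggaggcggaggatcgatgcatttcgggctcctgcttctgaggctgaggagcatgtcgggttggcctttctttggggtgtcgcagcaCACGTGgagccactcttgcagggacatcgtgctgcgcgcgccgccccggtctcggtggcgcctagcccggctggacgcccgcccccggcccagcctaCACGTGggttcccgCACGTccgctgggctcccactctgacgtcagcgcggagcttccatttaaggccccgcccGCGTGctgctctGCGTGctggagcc
Bnip3 (chr7:138909457-138909756, minus strand): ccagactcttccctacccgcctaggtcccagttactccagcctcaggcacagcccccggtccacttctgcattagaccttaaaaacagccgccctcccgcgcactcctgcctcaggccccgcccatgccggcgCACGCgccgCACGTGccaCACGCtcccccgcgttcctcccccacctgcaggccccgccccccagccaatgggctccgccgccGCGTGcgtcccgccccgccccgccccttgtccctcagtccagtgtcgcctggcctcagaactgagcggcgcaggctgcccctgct

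The Ldha window held 7 matches, that of Bnip3 5, Pdk1 2, Kdm3a and Ldhb 1 each and Eno2 0. Among windows not shown, Ankrd37, lower with S100a8, held 4. Eno4, higher with either protein, held 0, as did Tpi1 and Aldoa, which stayed near control. Any link between matches and ratios was not tested. A promoter was listed for 36 of the 39 members, and 27 of these (75.0%) held at least 1 match, against 63.7% of 9058 compared genes and 43.8% of all 27025 genes in the table. The letters alone do not show binding, and a window without them says nothing of HIF elsewhere.

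Among the members, the transcripts of the HIF subunits and of the oxygen sensors were above the floor except for Egln3. With S100a9 none of the 5 compared genes passed 1.2-fold from control, and with S100a8 only Arnt did. Hif1a, the alpha subunit, had signals of 1536 with S100a9, 1960 with S100a8 and 1722 in the control. The S100a9 array was thus the lowest and the S100a8 array the highest, and S100a9 lay 0.35 below S100a8 on the log2 scale. This order was not shared by the probe sets of Hif1a. The second had 532, 559 and 584 and the next 135, 137 and 200 on the S100a9, S100a8 and control arrays, both lowest with S100a9 and highest in the control. With all probe sets averaged, the S100a9 over S100a8 difference of Hif1a was −0.11 and its S100a8 over control ratio was −0.11 instead of 0.19.

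Arnt, the partner of Hif1a, had 603 with S100a9, 490 with S100a8 and 613 in the control on its brightest probe set. S100a9 was near control, at −0.02, and the S100a8 array was the low one, with a log2 ratio of −0.32. The 2 further probe sets of Arnt above the floor did not share this, with S100a8 over control ratios of 0.08 and 0.21. Averaging all probe sets of Arnt gave −0.01.

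Egln1, the main prolyl hydroxylase for Hif1a, had 1244 (S100a9), 1226 (S100a8) and 1178 (control). Both treated arrays were above control by small amounts, 0.08 and 0.06, and a second probe set of Egln1 read 0.37 and 0.28. Egln2, a related hydroxylase, had 996, 1135 and 966, so that only S100a8 stood apart, by 0.23. Egln3, the hydroxylase gene most strongly induced by hypoxia in many cells, lay below the floor on each array. Vhl, the recognition part of the ubiquitin ligase, had 590, 585 and 564. Its second, dim probe set went to opposite sides of control with S100a9 (−0.23) and S100a8 (0.18).

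Glucose entry and the hexose steps stayed near control. On the brightest probe set, none of the 8 compared genes passed 1.2-fold in any of the 3 comparisons, and their median log2 ratios over control were 0.03 with S100a9 and −0.03 with S100a8. Slc2a1, the glucose transporter GLUT1, had 2052 with S100a9, 2108 with S100a8 and 1965 in the control, with log2 ratios of 0.06 and 0.10. Its 2 other probe sets were at 0.04 and 0.15 with S100a9 and at −0.02 and −0.02 with S100a8. Slc2a3, the transporter GLUT3, was below the floor on all of its probe sets.

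The hexokinases trap glucose in the cell. Hk1 had 1557 (S100a9), 1596 (S100a8) and 1544 (control), within 0.05 of control on its brightest probe set. Its second probe set had 145, 110 and 108 and stood apart with S100a9, at 0.42, against 0.03 with S100a8. Averaged over both, Hk1 was at 0.22 with S100a9. Hk2, the hexokinase induced in many tumours, had 1340, 1289 and 1488. Both treated arrays were below control here, by log2 ratios of −0.15 and −0.21, on a single probe set.

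The 3 phosphofructokinase genes, which catalyse the committed step, all lay slightly lower with S100a8 on their brightest probe sets. With S100a9 Pfkl was at 0.05, Pfkm at 0.01 and Pfkp at −0.01, and with S100a8 they were at −0.09, −0.11 and −0.06. A dimmer probe set of Pfkl had 139, 146 and 183 and was below control with both, at −0.40 for S100a9 and −0.33 for S100a8. Averaging its probe sets put Pfkl at −0.07 with S100a9. Pfkfb4, which makes and breaks the activator of phosphofructokinase, had 219 with S100a9, 189 with S100a8 and 189 in the control, a log2 ratio of 0.21 for S100a9. Pfkfb3, of the same family, was not above the floor. Aldoa, aldolase A, had 7058, 6755 and 6586, and its 5 probe sets ranged from −0.04 to 0.10 with S100a9 and from −0.05 to 0.06 with S100a8. Aldoc, the brain-type aldolase, was below the floor.

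**Figure D3:**
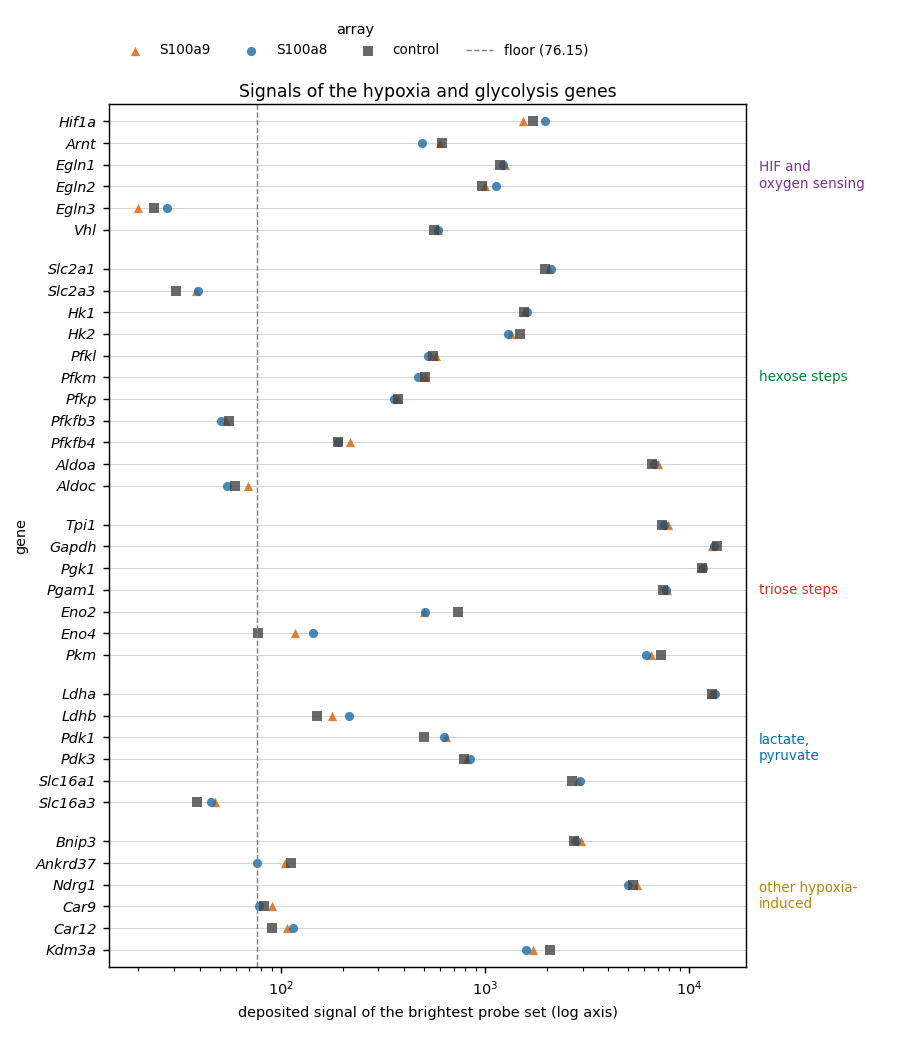
Deposited signal of the brightest probe set of each of the 36 genes with probe sets (rows, grouped by role) on the S100a9, S100a8 and control arrays, on a log axis, with the floor of 76.15 as a dashed line. The 3 symbols overlap for most genes, Egln3, Slc2a3, Pfkfb3, Aldoc and Slc16a3 lie left of the floor, and the control stands apart from both treated arrays for Eno2, Eno4 and Kdm3a. Signals of different genes come from different probes and cannot be ranked against each other.

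Downstream of aldolase, Tpi1, Gapdh, Pgk1 and Pgam1 stayed near control. Pkm was lower with either protein, at −0.16 with S100a9 and −0.25 with S100a8. Eno2 and Eno4 passed 1.2-fold with either protein, in opposite directions. Eno3, an enolase gene outside the members, had 1767 with S100a9, 1844 with S100a8 and 1558 in the control. It stayed within 1.2-fold, at 0.18 with S100a9 and 0.24 with S100a8. Tpi1, triose phosphate isomerase, had 7835 with S100a9, 7528 with S100a8 and 7380 in the control. Gapdh was represented by 3 Affymetrix control probe sets along its transcript, whose log2 ratios ran from −0.08 to 0.02 with S100a9 and from −0.05 to 0.02 with S100a8. The ratio of its 3′ to its 5′ probe set, a sign of RNA integrity, was 1.03, 1.01 and 0.96 on the S100a9, S100a8 and control arrays. Pgk1, phosphoglycerate kinase, had 11465, 11705 and 11500. Both treated arrays were within 0.03 of control on the log2 scale. Pgam1, phosphoglycerate mutase, was at 0.06 and 0.04.

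Eno2, an enolase typical of neurons that hypoxia can also induce, had signals of 501 with S100a9, 505 with S100a8 and 735 in the control. The treated arrays were nearly equal and the control stood apart: Eno2 was 1.47-fold lower with S100a9 (log2 ratio −0.55) and 1.45-fold lower with S100a8 (−0.54). Of 11128 compared genes, it had the 117th lowest ratio with S100a9 and the 275th lowest with S100a8. It rests on 1 probe set, and its ratio ran from −0.57 to −0.54 with S100a9 and from −0.54 to −0.50 with S100a8 over the 9 alternative settings. Those that average or choose among probe sets could not change it.

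Eno4, an enolase described mainly in sperm, went the other way. It had 117 with S100a9, 144 with S100a8 and 76.9 in the control, so that the control was just above the floor. The folds were 1.52 with S100a9 and 1.87 with S100a8. Its 2 other probe sets lay below the floor, with 62.7 and 61.7 (S100a9), 68.1 and 63.6 (S100a8), and 55.3 and 54.6 (control). At the floor they give no ratio. Dim signals of the S100a8 array lay above control in the median, and with ratios centred by brightness Eno4 was at 0.60 with S100a9 and 0.77 with S100a8.

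Pkm, pyruvate kinase, which forms pyruvate at the end of glycolysis, had 6513 with S100a9, 6121 with S100a8 and 7276 in the control. Both treated arrays were below control, with log2 ratios of −0.16 with S100a9 and −0.25 with S100a8, the second just inside 1.2-fold. Pkm has 1 probe set in the annotation.

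Most of the few member genes of lactate and pyruvate handling were above control. With S100a9 4 of 5 compared genes were above control and with S100a8 all 5, at medians of 0.09 and 0.12. Over all compared genes, 51.2% were above control with S100a9 and 52.5% with S100a8. Of 15 other lactate and pyruvate genes outside the members, 9 were above control and 6 below with either protein. Their medians were 0.04 with S100a9 and 0.04 with S100a8. Slc16a3, the lactate exporter MCT4, was below the floor.

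Ldha, which turns pyruvate into lactate and is a classic HIF target, had 12764 with S100a9, 13303 with S100a8 and 12905 in the control. These 3 values span little, with log2 ratios of −0.02 and 0.04. Ldhb, the isoform typical of heart, had 177, 216 and 150. S100a8 was the highest and the control the lowest, at 0.24 for S100a9 and 0.53 (1.44-fold) for S100a8. Its 3 other probe sets lay below the floor on average, and after centring by brightness the S100a8 value of Ldhb was 0.44.

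Pdk1, whose kinase diverts pyruvate from the mitochondria, had 643 with S100a9, 625 with S100a8 and 504 in the control. The control was the low array, and the folds were 1.28 and 1.24. A second probe set of Pdk1 had 423, 600 and 405, apart from control with S100a8 (0.57) and close to control with S100a9 (0.06), and another had 271, 275 and 290, slightly below control with either protein. Averaged over all its probe sets, Pdk1 was at 0.08 with S100a9 and 0.20 with S100a8, no longer past 1.2-fold. Pdk3, a related kinase, was at 0.04 and 0.10. Slc16a1, the monocarboxylate transporter MCT1, had 2837, 2911 and 2670, or 0.09 and 0.12 on the log2 scale.

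**Figure D4:**
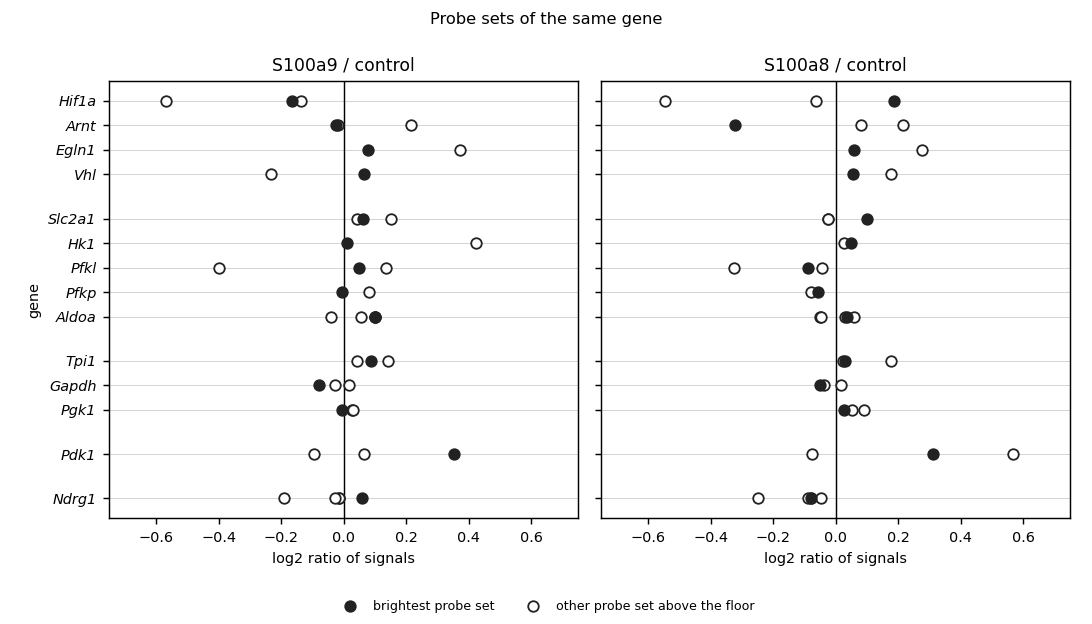
Log2 ratio over control for each probe set above the floor of the 14 members with more than 1, with S100a9 and with S100a8. The filled point is the brightest probe set and the open points are the others. Points lie close together for Gapdh, Pgk1 and Aldoa. They spread to both sides of 0 for Pdk1 and Arnt with either protein, for Hif1a with S100a8, and for Pfkl and Vhl with S100a9.

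The hypoxia-induced genes outside glycolysis lay on both sides of control. Bnip3, which tags mitochondria for removal, had 2939 with S100a9, 2798 with S100a8 and 2710 in the control, within 0.12 of control. Ndrg1, a stress gene strongly induced by hypoxia, had 5532, 5033 and 5316. Of its 5 probe sets, 4 were below control with S100a9 and all 5 with S100a8 (from −0.25 to −0.05).

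Kdm3a, a HIF target that removes methyl marks from histone H3, had 1721 with S100a9, 1594 with S100a8 and 2072 in the control. The control was the high array, and Kdm3a was lower by log2 ratios of −0.27 with S100a9 and −0.38 with S100a8, the second a fold of 1.30. It ranked 849th lowest with S100a9 and 642nd lowest with S100a8. Under quantile normalization the S100a9 value was −0.25 and under median centring −0.26, both just short of 1.2-fold, while with S100a8 it was −0.34 under each.

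Ankrd37, a small HIF target, was dim and had 104 with S100a9, 75.8 with S100a8 and 112 in the control. Only the S100a8 array lay apart, just under the floor, which makes Ankrd37 at least 1.47-fold lower with S100a8 than in the control. S100a9 exceeded S100a8 by at least 1.37-fold. The carbonic anhydrase genes, whose enzymes handle the acid that glycolysis produces, were also dim. Car9, the most HIF-dependent of them, had 90.7, 77.6 and 82.2, and Car12 had 106, 114 and 90.4. Car12 was at 0.24 with S100a9 and 0.33 with S100a8, and the S100a8 value was 0.14 after centring by brightness.

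Read by array, the control was the lowest of the 3 for 15 of the 31 members (48.4%) and the highest for 8 (25.8%). Over all compared genes it was the lowest for 37.4% and the highest for 33.7%. The S100a8 array was the lowest for 5 of 8 hexose genes and for 4 of 6 hypoxia-induced genes outside glycolysis, but for 0 of 5 lactate and pyruvate genes. It was the lowest for 11 of 31 members (35.5%) and for 37.4% of all compared genes. The S100a9 array was the lowest for 5 of 31 members (16.1%), against 24.4% of all genes.

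Further genes of the same pathways came from 4 lists chosen by function, of which 72 genes could be compared. With S100a9, 6 were at least 1.2-fold higher (8.33%) and 5 at least 1.2-fold lower (6.94%) than control, next to 6.08% and 7.83% of all compared genes, at a median of 0.00. With S100a8, 16 were higher (22.2%) and 7 lower (9.72%) by that size, next to 13.7% and 11.3% of all genes, at a median of 0.02. The 20 compared glycolysis and branch genes had the highest medians of the 4 lists, 0.11 and 0.16, with 3 and 7 genes at least 1.2-fold higher of 20, next to 6.08% and 13.7% of all genes. Of the 7 with S100a8, Slc2a4, Pgam2, Pklr and Gpd1, picked out here after their values were seen, belong to the 2782 dimmest genes, whose median with S100a8 was 0.14, and the part of this shift in their ratios was not tested.

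Among the 26 other hypoxia-induced genes, Ddit4, an inhibitor of mTORC1 that responds to hypoxia and other stresses, was lowest, with 1942 in S100a9-treated cells, 1841 in S100a8-treated cells and 3023 in the control. Gbe1, the glycogen branching enzyme, had 199, 186 and 128 and was the highest with S100a9, at a fold of 1.55. Vegfa, the angiogenic factor and a HIF target, had 440, 430 and 501, with log2 ratios of −0.19 and −0.22. Over the 26 genes, 11 were above control and 15 below with S100a9, against 12 and 14 with S100a8.

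Slc2a6, a glucose transporter family member found mainly on lysosomes, was the lowest of the glycolysis and branch genes. It had 255 with S100a9, 208 with S100a8 and 378 in the control, or 1.48-fold and 1.81-fold lower. Slc2a4, the insulin-responsive transporter GLUT4, was the highest of that list but dim, with 103, 132 and 82.3. Hif1an, the hydroxylase that limits HIF activity, had 371, 378 and 404. Epas1, the alternative alpha subunit HIF-2 alpha, was below the floor on each array, and Bsg, the chaperone of the lactate transporters, had 2228, 1994 and 2198.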

How the data were processed

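Total RNA of 3 CT26.WT cultures was measured on 3 Affymetrix arrays, 1 per group, and groups were taken from the labelled agent. The authors deposited linear probe set intensities, and the submitters' processing notes name MAS5 for them. Sources used here give neither its version nor the scaling target nor detection calls. MAS5 subtracts mismatch signal, so dim values are noisy, and scaling arrays to one level hides a change in total RNA per cell. The array number limits the precision.

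All 45101 probe sets were read, of which 34958 have 1 gene symbol in the platform annotation, 932 have several and 9211 have none. Those with several or none were left out. Of the 34958, 34754 matched RefSeq (GRCm38.p6) by Entrez number, and 0 symbols changed. Affymetrix control probe sets with a symbol were kept, since Gapdh has no others.

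Signals under the 50th percentile of all values (76.15) were set to it, and log2 was taken. For each gene the probe set of highest mean log2 intensity was used, and genes whose mean exceeded the floor were compared, leaving 11128 of 18194 genes. Differences are log2 ratios of single arrays, given with sizes of 1.2 and 1.5-fold, with no test. The steps were run with Python 3.11.15, numpy 2.4.6 and pandas 2.3.3. They were also tried on simulated arrays, with large changes planted in genes well above the floor and counted at 1.5-fold. That trial does not cover differences of 1.2-fold or genes near the floor.

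Every member is named. From each list of other pathway genes, up to the 2 highest and 2 lowest ratios against control could be named, with Hif1an, Epas1, Vegfa and Bsg in any case. Eno3 was added beside the other enolases after its values were seen. The members, lists, markers and sizes were chosen with earlier results of these data known. The 9 alternatives were median centring, quantile normalization, centring by brightness in 20 bins, floors at the 30th and 65th percentiles, log2(value + 1) without a floor, no filter, averaging the probe sets of a gene, and preferring probe sets whose names do not end in _x_at or _s_at.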

Additional observations from a re-analysis of the deposited data

How the results depend on the processing

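With 1 array per group, no replicate could be left out and no spread between cultures is known. No paired analysis was possible because each group has 1 sample. No member past 1.2-fold changed direction under any of the 9 alternatives in which it could be compared. Ratios short of that size could change sign: with probe sets averaged, Vhl was at −0.08 and Pfkl at −0.07 with S100a9, and Hif1a at −0.11 with S100a8. Over the alternatives 160 of 162 medians and 811 of 816 single-gene ratios moved by less than the SD between probe sets of a gene (0.23 for S100a9 and 0.28 for S100a8 over control, 0.24 for S100a9 over S100a8, for a median divided by the root of its number of genes), and 11 of 54 counts differed by more than 1.5 times. Counts of members at least 1.2-fold apart rest on few genes. With S100a9, the count of higher members (2) became 4 under quantile normalization, 1 with the floor at the 65th percentile and 0 with probe sets averaged, and the count of lower members (2) became 1 under median centring and 1 under quantile normalization. With S100a8, the count of higher members (4) became 2 with the 65th percentile floor and 0 with probe sets averaged. For S100a9 against S100a8, the higher members (2) became 1 with the 65th percentile floor and 1 with probe sets averaged, and the lower members (3) became 1 with centring by brightness and 0 with probe sets averaged. With that averaging, the median of the hypoxia-induced genes outside glycolysis was −0.0385 for S100a9 over control, and the median of the HIF genes was −0.11 for S100a9 over S100a8. The average includes dim ones held at the floor. Other causes were not tested. Eno2 passed 1.2-fold with either protein under 9 of 9 alternatives, and Kdm3a under 7 of 9 with S100a9 and 9 of 9 with S100a8. Both rest on 1 probe set, so averaging or choosing among probe sets could not change their ratios. Dropping the filter leaves the ratio of any compared gene as it was. Such settings enter the counts over the alternatives without being able to move these ratios.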
